A study of Mus musculus with 3 samples.

Results

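The 10 genes described here encode chaperones and disulfide isomerases of the endoplasmic reticulum (ER), namely *Hsp90b1*, *Hspa5*, *Hyou1*, *Dnajb9*, *Calr*, *Canx*, *P4hb*, *Pdia3*, *Pdia4* and *Pdia6*. They were picked by symbol as ER folding genes with their levels and spread in these files already known, so levels, ranks and spread are given as a description with no test. All 10 were found among the 22698 Ensembl genes of the files. The samples are 3 replicates, labelled 1, 3 and 4, of untreated melan-a cells, a line of immortalized mouse melanocytes on a C57BL/6J background that the labels derive from Ink4a-ARF-/- mice. The medium of all 3 contained serum, a phorbol ester (12-O-tetradecanoylphorbol 13-acetate) and cholera toxin. There is 1 condition and no control, the line is a single immortalized one, and the labels do not say how the replicates were kept apart, so the spread between them may be partly technical. RNA was poly(A)-selected and sequenced with strand information, and the values are the FPKM deposited by the authors (reads per unit of gene length and of library size), normalised with TMM, the trimmed mean of M values.

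The ER folds proteins that are bound for membranes, lysosome-related organelles and secretion. HSPA5, also called BiP or GRP78, is the Hsp70 of the ER lumen. It binds unfolded chains in cycles of ATP hydrolysis that J-domain proteins such as DNAJB9 stimulate and that HYOU1 helps to reset by exchanging the nucleotide. HSP90B1, also called GRP94, is the Hsp90 of the ER. Calreticulin (*Calr*) and calnexin (*Canx*) are lectins that hold newly made glycoproteins through their sugar chains, with the isomerase PDIA3 as their partner, while P4HB, PDIA4 and PDIA6 form and rearrange disulfide bonds. In pigment cells the melanosomal enzyme tyrosinase is a known client of calnexin. When unfolded proteins build up, the sensors ATF6, IRE1 (*Ern1*) and PERK (*Eif2ak3*) start the unfolded protein response, in which ATF6 and XBP1 activate chaperone genes through the ER stress response element, or ERSE.

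The ERSE is a CCAAT box and a CCACG box set 9 bases apart. RefSeq promoter windows on GRCm38.p6, from 250 bases before the gene start to 50 after it, were at hand for *Calr*, *P4hb*, *Pdia3*, *Hsp90b1*, *Hspa5*, *Pdia4*, *Canx*, *Pdia6* and *Dnajb9* and not for *Hyou1*. A search on both strands for CCAAT, any 9 bases and CCACG found a match in 5 of these 9 windows, against 39 of all 32851 windows (0.119%). The ERSE is known as an element of ER chaperone genes, so matches in such genes were likely beforehand. The counts of ERSE forms here and below are therefore a description and no independent result. The 6 matches are printed below in the direction in which they read CCAAT to CCACG, with both boxes in capitals, so that the spacers can be compared.

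*Hsp90b1*, distal: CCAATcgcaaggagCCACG

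*Hsp90b1*, proximal: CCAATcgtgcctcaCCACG

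*Hspa5*: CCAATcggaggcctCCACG

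*Calr*: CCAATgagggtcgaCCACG

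*Canx*: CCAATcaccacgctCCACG

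*Pdia6*: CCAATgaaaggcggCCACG

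The 9-base spacers differ in all 6 matches and hold 6 or 7 bases that are G or C. *Hspa5* carries the match nearest to its start, 65 bases before it at chr2:34772025-34772043. The match of *Pdia6* begins 98 bases before the start at chr12:17266491-17266509. *Canx* has its match 145 bases before the start at chr11:50325800-50325818. In *Calr* the match lies 162 bases before the start at chr8:84847075-84847093, on the opposite strand. In this search for exact letters, which leaves imperfect forms of the element uncounted, *Hsp90b1* is the only one of the 9 with more than 1 match. Its distal match begins 212 bases before the start at chr10:86705638-86705656 and its proximal match 107 bases before it at chr10:86705533-86705551, on the opposite strand. The whole windows of *Hsp90b1* (chr10:86705395-86705694, minus strand) and *Hspa5* (chr2:34771840-34772139, plus strand) are shown on the strand of the gene because these genes encode the Hsp90 and the Hsp70 of the ER, with the ERSE boxes in capitals. In *Hsp90b1* the proximal boxes appear as CGTGG and ATTGG, their reverse complement.

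*Hsp90b1* promoter: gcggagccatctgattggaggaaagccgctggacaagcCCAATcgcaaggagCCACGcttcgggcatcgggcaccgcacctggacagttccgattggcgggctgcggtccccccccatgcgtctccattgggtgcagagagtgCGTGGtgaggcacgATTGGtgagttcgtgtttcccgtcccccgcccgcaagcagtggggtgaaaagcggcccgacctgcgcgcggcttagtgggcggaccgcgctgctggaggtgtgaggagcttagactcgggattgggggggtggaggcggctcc

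*Hspa5* promoter: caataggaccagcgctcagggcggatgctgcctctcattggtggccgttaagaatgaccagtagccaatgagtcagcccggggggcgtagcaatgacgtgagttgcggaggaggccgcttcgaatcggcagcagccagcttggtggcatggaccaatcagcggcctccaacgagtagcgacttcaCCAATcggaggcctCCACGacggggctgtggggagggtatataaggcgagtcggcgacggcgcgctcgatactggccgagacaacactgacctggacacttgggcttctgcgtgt

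**Figure D1:**
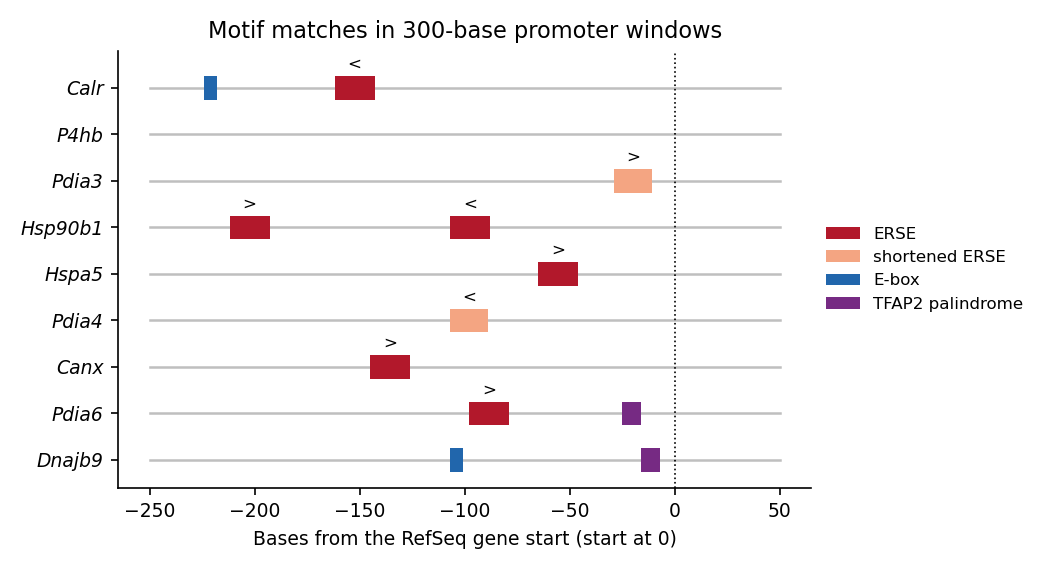
Motif matches in the 9 promoter windows, drawn by their distance in bases from the RefSeq gene start, with 1 line per gene in the order of mean FPKM and arrows for the strand of ERSE matches. ERSE matches stand in *Calr*, *Hsp90b1*, *Hspa5*, *Canx* and *Pdia6*, and the shortened form is drawn only for *Pdia3* and *Pdia4*, which have no full match.

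With the last base of the element dropped (CCAAT, any 9 bases and CCAC, which every full match also holds), *Pdia3* and *Pdia4* were added, giving 7 of 9 windows against 0.365% of all windows. The match of *Pdia3* began 29 bases before the start and that of *Pdia4* 107 bases before it. The windows of *P4hb* and *Dnajb9* held neither form. Another element of the response, ERSE-II (ATTGG, any 1 base and CCACG), was in none of the 9 windows and in 0.0365% of all windows, and TGACGTGG, the core of the XBP1 element, was in none of the 9 and in 0.676% of all. The E-box CACGTG, which MITF and many related factors bind, was in *Calr* and *Dnajb9*, and in 7.15% of all windows. GCCNNNGGC, the palindrome of TFAP2 factors, was in *Pdia6* and *Dnajb9*, and in 16.6% of all. These are matches of letters and no measurement of binding.

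The ERSE was rare enough to list the other genes that carry it. Its 39 windows belong to 37 symbols, of which 5 are the genes above and 5 others stand on the lists of ER genes used below, among 91 such genes with a window. *Dnajc3*, a J-domain partner of BiP, had 31.3 FPKM, *Syvn1*, the ubiquitin ligase HRD1 of ER-associated degradation, 25.9, *Creld2*, an ER stress gene, 23.5, and *Ero1b* (*Ero1lb* in the annotation), an oxidase that recharges PDI, 0.803. *Derl3*, a derlin of the degradation channel, was at 0 in every replicate. The other 27 symbols are on none of the ER lists, and the highest mean among the 14 of them in the files was 9.22 FPKM (*Alg12*, a mannosyltransferase of the ER). The 5 chaperone genes with an ERSE had means between 129 and 963 FPKM, above all 19 other ERSE genes in the files. The chaperone genes were chosen with their levels known, so this order is a description. Of those 19 genes, 6 were listed at 0 in every replicate, as were 31.4% of all genes, and 3 of the 6 (*Xlr3a*, *Xlr3b* and *Xlr3c*) are close copies of each other whose values are uncertain.

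The label of the cells was checked against markers before the levels were read. All 7 melanocyte markers reached at least 1 FPKM in every replicate, from a mean of 22.1 (*Mitf*) to 3144 FPKM (*Tyrp1*), and their sum ranged from 5711 to 6557 FPKM. None of 6 keratinocyte markers did, with a sum of at most 0.7 FPKM and with *Krt1*, *Trp63* and *Dsg3* at 0. Of 6 fibroblast markers 1 did (*Col1a1*, 1.54 FPKM), with a sum of 1.61 to 1.95. Of 4 immune and endothelial markers 0 did, with a sum of 0.77 to 1.61 that was nearly all *Cd68*, and with *Ptprc* at 0. *Cdkn2a*, the Ink4a-ARF gene, had 19.2, 16.5 and 24.3 FPKM, and values for a whole gene do not show which of its exons carried the reads. The replicates also differed by base composition. The log2 ratio of replicate 4 to replicate 3 had a Spearman's rho of -0.78 with the GC content of the transcript over 10006 expressed genes, and the values below are read beside GC content for that reason.

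In replicates 1, 3 and 4 the FPKM of the 10 genes added up to 2664, 2549 and 2743, which is 2652 ± 98 (SD, n = 3). In such bulk RNA, fewer cells that express a gene and less RNA per cell cannot be told apart. This was 0.703%, 0.646% and 0.764% of all FPKM of these replicates. The lectin chaperones held 41.7% of the sum, the disulfide isomerases 36.1%, the Hsp90 and Hsp70 chaperones 21.0% and the J-domain protein 1.14%. All 10 reached at least 1 FPKM in every replicate, as did 44.1% of all genes. By mean FPKM 8 of 10 were among the highest 1000 genes, which are 4.41% of all genes, and nothing is read from that count because levels were known when the genes were chosen.

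**Figure D2:**
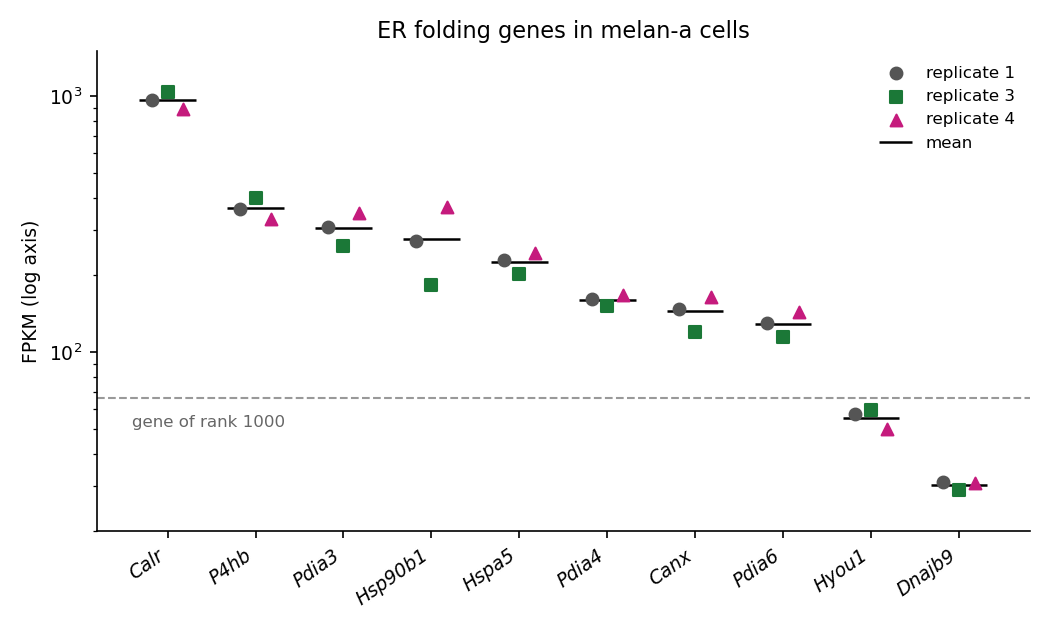
FPKM (log axis) of the 10 ER folding genes in replicates 1, 3 and 4 of melan-a cells, with the mean as a bar and the mean of the gene of rank 1000 as a dashed line. *Calr* stands alone at the top, 7 genes lie between 129 and 365 FPKM on average, and *Hyou1* and *Dnajb9* lie below the dashed line at 66.0 FPKM.

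*Calr* (ENSMUSG00000003814, chr8:87365749-87370833 of mm9, minus strand), the soluble calcium-binding lectin, was the highest of the 10. Replicates 1, 3 and 4 gave 965, 1031 and 892 FPKM. The mean was 963 ± 69 (SD, n = 3), at rank 28 of 22698. The lowest *Calr* value was above the highest value of every other member. *Canx* (ENSMUSG00000020368, chr11:50107969-50139175), its membrane-bound counterpart, had 148, 120 and 164 FPKM and rank 367. The ratio of *Calr* to *Canx* was 6.53, 8.58 and 5.43, so the soluble lectin was above the membrane-bound one in all 3 replicates while the size of the gap varied.

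Among the disulfide isomerases, *P4hb* (ENSMUSG00000025130, chr11:120421612-120434567), which encodes PDI itself, had 361, 401 and 332 FPKM and rank 125. *Pdia3* (ENSMUSG00000027248, chr2:121239511-121264423), which encodes ERp57, the isomerase that works with the lectins, had 307, 259 and 348 FPKM and rank 151. The ranges of the pair overlap, and *Pdia3* was above *P4hb* in replicate 4 only. *Pdia4* (ENSMUSG00000025823, chr6:47746141-47763511), or ERp72, had 161, 151 and 167 FPKM and rank 327. *Pdia6* (ENSMUSG00000020571, chr12:17273351-17291576), or P5, had 130, 114 and 143 FPKM and rank 416. *Pdia4* was above *Pdia6* in every replicate without overlap of their ranges.

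Of the Hsp70 branch, *Hspa5* (ENSMUSG00000026864, chr2:34627490-34632051) had 229.7, 201 and 244 FPKM. Its mean was 225 ± 22 (SD, n = 3), at rank 211. *Hyou1* (ENSMUSG00000032115, chr9:44187573-44200452), the large Hsp70-like exchange factor, had 57.4, 59.3 and 50.1 FPKM and rank 1222. *Dnajb9* (ENSMUSG00000014905, chr12:45306884-45311055), the J-domain protein ERdj4, had 31.1, 28.9 and 30.9 FPKM and rank 2252. BiP was thus 4.09 ± 0.74 times (SD, n = 3) the level of *Hyou1* and 7.42 ± 0.48 times that of *Dnajb9*. These gaps are larger than the spread between replicates of any of the 3 genes.

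*Hsp90b1* (ENSMUSG00000020048, chr10:86152954-86168254, minus strand) had 273, 183 and 369.9 FPKM in replicates 1, 3 and 4. Its mean was 275 ± 93 (SD, n = 3), at rank 170. Replicate 4 was 2.02 times replicate 3, and the gene moved within the order of the 10 from position 5 in replicate 3 to position 2 in replicate 4. It exceeded *Hspa5* in replicates 1 and 4 and lay below it in replicate 3. Of its exon bases, 5.38% also belong to annotated genes of its own strand (*AC152453.1* and *Gm15344*), the largest such overlap among the 10, and 10.3% face the exons of *1810014B01Rik* on the other strand.

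Along the order of means, ranges did not overlap between *Calr* and *P4hb*, between *Hspa5* and *Pdia4*, between *Pdia6* and *Hyou1* or between *Hyou1* and *Dnajb9*. They overlapped for *P4hb* and *Pdia3*, *Pdia3* and *Hsp90b1*, *Hsp90b1* and *Hspa5*, *Pdia4* and *Canx*, and *Canx* and *Pdia6*. *Canx* was nevertheless above *Pdia6* and below *Pdia4* in each of the 3 replicates. The order within the upper part also depends on gene length. The length used for the FPKM is not given. Low values of short genes with several transcripts came out near whole reads with the joined exons as length. The mean distance was 0.044 to 0.065 reads over 5 to 8 genes per replicate. No other length was tried in this check, so it cannot show which length was used. Joined exons are longer than the longest coding transcript in 7 of the 10. Divided by the longest protein-coding transcript instead, a calculation added after the data were seen, *Hsp90b1* came to 393 FPKM and moved to position 2, above *P4hb* at 365 and *Pdia3* at 345. *Pdia6* rose to 223 FPKM, above *Canx* and *Pdia4* at 160 and 159, and *Hyou1* to 89.5 FPKM. *Calr* stayed first and *Hyou1* and *Dnajb9* last.

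The reads behind these values were many. The scaled library sizes, found from low values that must be whole reads, were 53850000, 46950000 and 66150000 reads in replicates 1, 3 and 4. At these sizes *Calr* corresponded to about 139401 reads in its lowest replicate, *Hsp90b1* to about 34735 and *Dnajb9*, the gene with fewest, to about 2530. These numbers take the joined exons as length. The largest counting error of any value was therefore 1.99% (*Dnajb9*, replicate 3), and for *Hsp90b1* it was 0.537%, against a coefficient of variation (CV, SD over mean) of 33.9% between replicates. Counting errors cover the drawing of reads only.

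The CV of the 10 genes ran from 4.04% (*Dnajb9*) to 33.9% (*Hsp90b1*), with a median of 9.56%, beside a median of 11.4% over the 10011 genes of at least 1 FPKM in every replicate. *Hsp90b1* stood apart from the rest, since the next CV was 15.5% (*Canx*), and 3.51% of all those genes had a CV as large. Without replicate 3 the CV of *Hsp90b1* was 21.4%. Without *Hsp90b1* the sum of the other 9 was 2391, 2365 and 2373 FPKM, with a CV of 0.558%.

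The small CV of that sum came from genes that moved in opposite ways. *Calr*, *P4hb* and *Hyou1* were highest in replicate 3 and lowest in replicate 4, and the other 7 were lowest in replicate 3. Of those 7, 6 were highest in replicate 4, and *Dnajb9* had 31.1 FPKM in replicate 1 and 30.9 in replicate 4. The 3 genes have transcripts with GC contents of 50% (*Calr*) to 53.8%, and the 7 of 38.3% to 48.9%. A smoothed curve over the expressed genes gives the log2 ratio of replicate 4 to replicate 3 at each GC content. For *P4hb* and *Hyou1* the curve gave -0.209 and -0.210, where -0.270 and -0.242 were measured. For each of the 7 both values were positive. For *Calr* the curve gave 0.018 and -0.208 was measured, so the curve did not give the direction of *Calr*. The correlation with GC content given above is likewise a description, over genes measured in the same libraries. Whether GC content is the cause of the differences in these 10 genes was not tested.

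**Figure D3:**
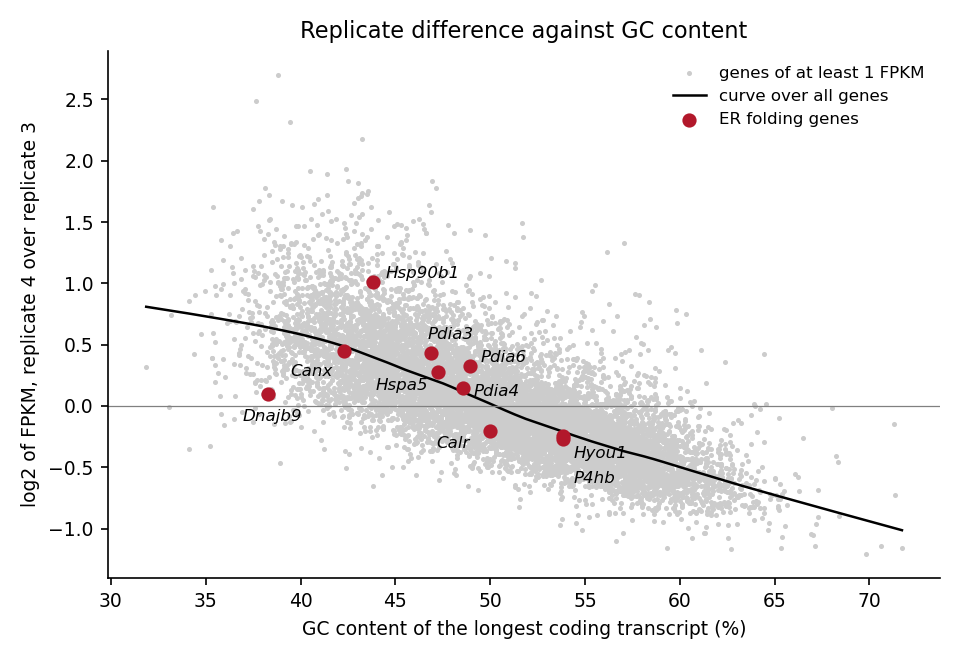
Log2 ratio of FPKM in replicate 4 to replicate 3 against GC content (%) of the longest coding transcript, with each gene of at least 1 FPKM in grey, the smoothed curve over them in black and the 10 ER folding genes in red. *Hsp90b1* lies above the curve by 0.61, *Dnajb9* below it by 0.55, and the other 8 within 0.24 of it.

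Between replicates 3 and 4, 1 of the 10 genes (*Hsp90b1*) was past 1.5-fold in the direction of replicate 4, as were 12.2% of the genes of at least 1 FPKM, and none was past it in the direction of replicate 3, as were 6.38% of those genes. The curve in GC content gives a log2 ratio of 0.40 at the composition of *Hsp90b1* (43.8% GC), and the measured log2 ratio was 1.01. After the curve was divided out, replicate 4 of *Hsp90b1* was still 1.53 times replicate 3, and 4.02% of the genes had a ratio at least as high. On that scale it was again the single gene of the 10 past 1.5-fold towards replicate 4, as were 4.52% of all genes, and none was past it towards replicate 3, as were 0.889%. Its CV fell to 20.9%, and 5.65% of the genes had a CV at least as large on that scale. Over the genes of at least 1 FPKM the median CV fell as well, from 11.4% to 7.20%. The share of all genes with a CV below 4% on this scale was not counted. Of the 10 genes 5 were below it, as *Canx*, from 15.5% to 2.59%, and *Pdia4*, from 5.09% to 1.53%. *Dnajb9* and *Calr* went the other way. The CV of *Calr* rose from 7.20% to 7.83% once the curve was divided out. The transcript of *Dnajb9* is the poorest in GC of the 10, and its FPKM hardly differed between the replicates. The CV of *Dnajb9* rose from 4.04% to 18.7%.

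The genes whose pattern over the 3 replicates was most like that of *Hsp90b1* were *Matr3*, *Fxr1*, *Dnm1l*, *Cdc27* and *Acsl4*, at distances of 0.0047 to 0.040 on the log2 scale after centring each gene, among 4931 genes of at least 10 FPKM in every replicate. *Matr3*, a nuclear matrix protein, had 19.5, 13.1 and 26.3 FPKM, and *Fxr1*, a relative of the fragile X protein, 28.6, 18.9 and 38.9. With 3 replicates a pattern has few ways to differ, and the transcripts of these 5 genes have 38.4% to 43.2% GC. The nearest of the other 9 chaperone genes was *Canx*, at a distance of 0.40. *Hsp90aa1*, the stress-inducible Hsp90 of the cytosol, was nearer, at 0.17, and *Ddit3*, which encodes the stress factor CHOP and has a transcript of 55.4% GC, was at 0.057. *Sec62*, a gene of the ER translocon, was at 0.28, with a CV of 45.1% that exceeds that of *Hsp90b1*. *Hsp90ab1* and *Hspa8* were farther than *Canx*, at 0.71 and 0.72.

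Each ER chaperone of the Hsp90 and Hsp70 families has relatives in the cytosol and in mitochondria. *Hsp90ab1*, the constitutive cytosolic Hsp90, had 857, 874 and 885 FPKM, and *Hsp90b1* came to 0.318, 0.21 and 0.418 of it. *Hsp90aa1* had 34.5, 19.9 and 41.3 FPKM, and *Hsp90b1* was 7.91, 9.23 and 8.96 times as high, or 8.70 ± 0.70 (SD, n = 3). The pair thus moved together, with CVs of 33.9% and 34.3% and transcripts of 43.8% and 43.7% GC. *Trap1*, the mitochondrial Hsp90, had a mean of 35.5 FPKM.

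*Hspa8*, the constitutive cytosolic Hsp70, had 385, 391 and 389.8 FPKM, and *Hspa5* came to 0.596, 0.515 and 0.627 of it. *Hspa9*, the mitochondrial Hsp70, had a mean of 93.6 FPKM, and *Hspa5* was 2.45, 2.45 and 2.32 times as high. *Hsp90b1* and *Hspa5* thus each lay below the constitutive cytosolic member of their family and above the mitochondrial one in all 3 replicates. This does not extend to *Hyou1*, the Hsp70-like exchange factor of the ER, which lay below *Hspa9* in all 3. The heat-inducible *Hspa1a* and *Hspa1b* had means of 1.46 and 2.68 FPKM, which are uncertain because these genes are near-identical copies that share reads.

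**Figure D4:**
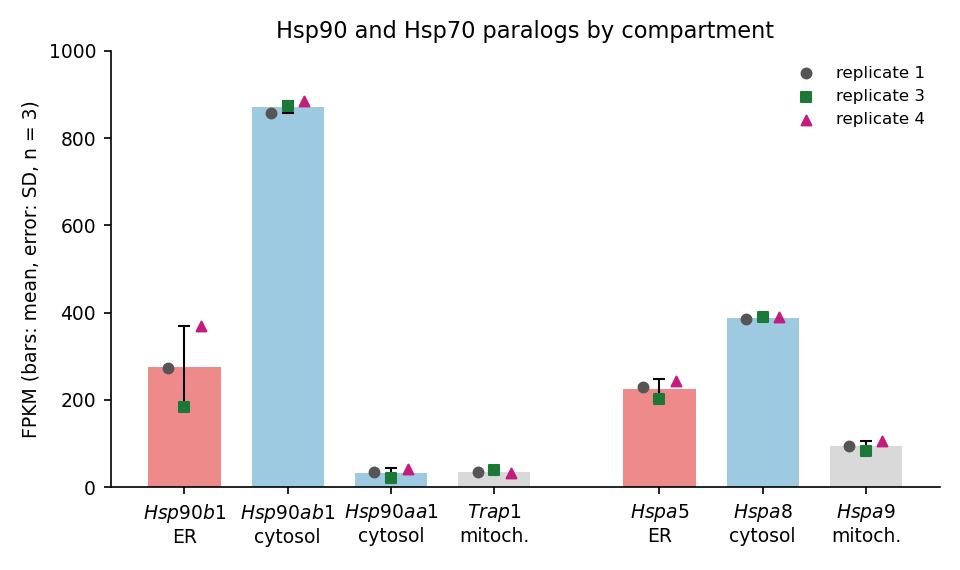
FPKM of Hsp90 and Hsp70 genes of the ER, cytosol and mitochondria, with bars for the mean, error bars for the SD (n = 3) and points for the replicates. *Hsp90ab1* at 872 FPKM and *Hspa8* at 389 FPKM stand above their ER relatives, and *Hsp90b1* has the widest error bar.

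Beyond the 10 genes, 116 ER genes were listed by function and 113 were found by symbol in the files. Of these, 101 had at least 1 FPKM in every replicate and 26 (23.0%) were among the highest 1000 genes, beside 44.1% and 4.41% of all genes. Their median was 27.4 FPKM, and 53 of them lay above *Dnajb9*, the lowest of the 10 at 30.3 FPKM. Only 7 exceeded 192 FPKM, the median of the 10, and *Serpinh1*, the collagen chaperone HSP47, was the single one above *Calr*, with 972, 1105 and 814 FPKM and a mean of 964 against 963. The difference between these means is far smaller than the SD of either gene.

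**Figure D5:**
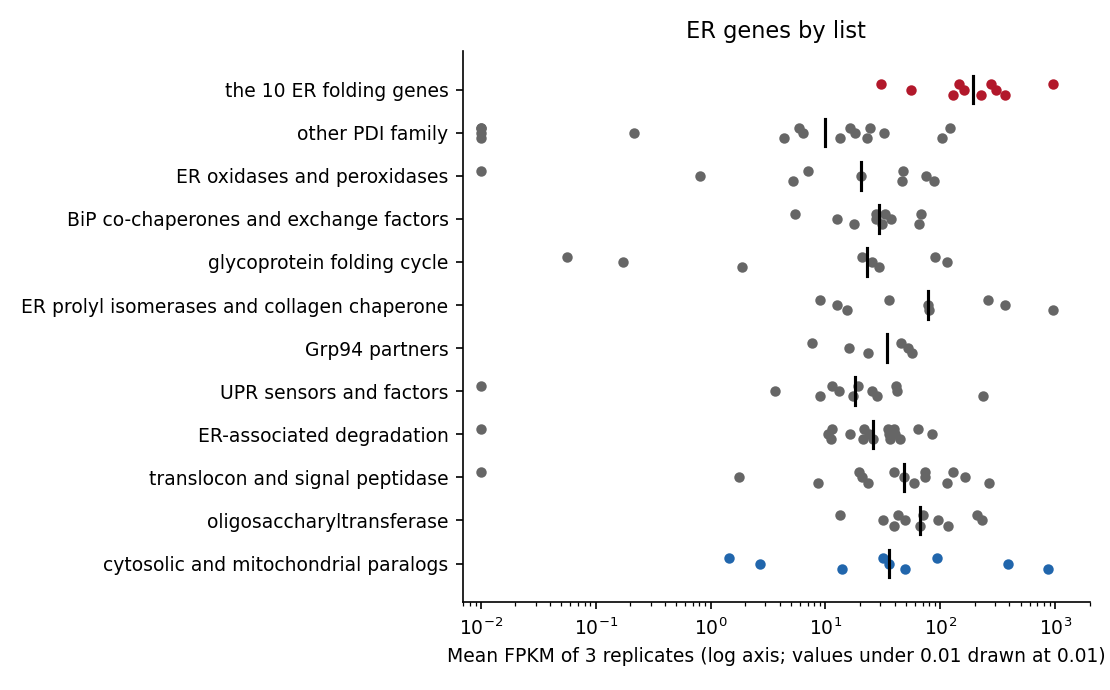
Mean FPKM (log axis) of each gene in the ER lists and of the cytosolic and mitochondrial relatives, with the median of each list as a bar. The median of the 10 ER folding genes, 192 FPKM, is above that of every other list, of which the highest is 78.6 FPKM for the prolyl isomerases and the collagen chaperone.

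Of the rest of the PDI family, 11 of 16 had at least 1 FPKM in every replicate. The highest were *Txndc12* (ERp18) at 122 FPKM, *Txndc5* (ERp46) at 103 and *Erp44*, which retains oxidases in the early secretory pathway, at 32.5, each with a lower mean than *Pdia6*, the lowest of the 4 isomerases among the 10. In replicate 3 alone, *Txndc12* at 122 and *Txndc5* at 121 FPKM were above *Pdia6* at 114. *Pdia2*, *Agr2* and *Agr3*, isomerases of pancreas and mucous epithelia, were listed at 0 in every replicate. Of the oxidases and peroxidases that supply PDI with disulfides or use up peroxide, 7 of 9 reached 1 FPKM, led by *Gpx8* at 88.9, *Vkorc1* at 74.5 and *Prdx4* at 47.2 FPKM, and *Gpx7* was listed at 0.

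All 10 of the co-chaperones and exchange factors of BiP reached 1 FPKM. *Dnajb11*, or ERdj3, had 68.0, 70.3 and 64.6 FPKM, above *Dnajb9* in each replicate. *Manf* had a mean of 65.6 FPKM and *Sdf2* 37.1, and *Dnajc1* was the lowest at 5.38. All 6 partners of GRP94 and related proteins reached 1 FPKM, led by *Cnpy3*, its co-chaperone for Toll-like receptors, at 56.5, *Creld1* at 52.6 and *Cnpy2* at 45.5, with *Cnpy4* lowest at 7.69.

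In the cycle that trims and reattaches glucose so that calnexin and calreticulin can bind, 6 of 8 genes reached 1 FPKM. The glucosidase II subunits *Prkcsh* and *Ganab* had 114 and 89.0 FPKM and *Uggt1*, the folding sensor that puts glucose back, 29.0. *Clgn* and *Calr3*, the testis relatives of calnexin and calreticulin, had 0.057 and 0.17 FPKM, far below *Canx* and *Calr*. All 9 prolyl isomerases and collagen chaperones were measured at 8.91 FPKM (*Fkbp14*) or more, with *Ppib*, or cyclophilin B, at 365 and *Fkbp9* at 262 next to *Serpinh1*.

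The 12 sensors and factors of the unfolded protein response had a median of 18.2 FPKM, and 11 of them reached 1 FPKM in every replicate. *Atf6* had 24.8, 25.4 and 26.3 FPKM, *Ern1* a mean of 8.89, *Eif2ak3* 13.1 and *Xbp1* 41.5, with spliced and unspliced *Xbp1* counted together. *Ern2*, the IRE1 gene of epithelia, was listed at 0. *Atf4*, the factor translated downstream of PERK, had 235, 241 and 236 FPKM. Its mean of 237 was above those of *Hspa5*, *Pdia4*, *Canx*, *Pdia6*, *Hyou1* and *Dnajb9*. In replicate 4 alone, *Hspa5* at 244 FPKM was above *Atf4* at 236. *Atf6b* had a mean of 42.4 FPKM. *Ddit3* had 19.2, 13.1 and 25.0 FPKM, lowest in replicate 3 and highest in replicate 4 like *Hsp90b1*. *Ern1* and *Mbtps2* had the same order of replicates with smaller ratios. *Trib3*, at 11.8, 13.9 and 8.49 FPKM, *Ppp1r15a* and *Atf6b* went the other way, highest in replicate 3 and lowest in replicate 4. The list thus had no common pattern. No stressed or unstressed sample is at hand for comparison, so these levels carry no statement on stress. Of the genes of ER-associated degradation, 16 of 17 reached 1 FPKM, with *Os9*, a lectin that hands over misfolded glycoproteins, highest at 84.3 and *Vcp*, the ATPase that extracts them, at 44.2.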

How the data were processed

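Per the paper's methods and the submitters' processing notes, the authors trimmed the 10 5'-most bases of stranded mRNA reads, aligned them to mm9 with STAR 2.3.0e, removed rRNA reads and counted genes of Ensembl release 67 with htseq-count (HTSeq 0.5.3p3). The deposited values are FPKM normalised with TMM and given to 2 decimals. The conversion to FPKM is not given in the sources used here. The values hold no counts, so no count test was run, and with 1 condition no group comparison was made.

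The genes and lists were chosen with earlier results of these data known. Symbols, positions and lengths came from an mm9 annotation (Ensembl release 65), which held 22324 of the 22698 genes. Ranks used the mean FPKM. Library sizes were those at which genes of 1 transcript and at most 400 bases gave whole reads, with a mean distance from whole numbers of 0.035 to 0.052 reads. The GC curve was a lowess fit (fraction 0.2) of each replicate's log2 ratio to the gene's mean, on genes of at least 1 FPKM in every replicate. Both steps were tested on simulated data. Named were all 10 genes, the 3 highest and the lowest gene of each list, a fixed set of paralogs and stress sensors, and the 5 genes closest in pattern to *Hsp90b1*. Of the genes this rule names, 1 is not reported here. *Calr3*, *Creld2*, *Dnajc3*, *Syvn1*, *Ero1b*, *Alg12*, *Hspa1b*, *Mbtps2*, *Trib3*, *Ppp1r15a*, *Sec62* and some genes at 0 are outside this rule and were named after their values were seen. Promoter sequences are from RefSeq (GRCm38.p6) and were used with coordinates of that build only. The alternatives were rescaled sums, medians, each replicate left out, GC-corrected values, a filter, a pseudocount and another gene length. Software was statsmodels 0.14.6 (lowess), scipy 1.17.1 (rank correlations), matplotlib 3.10.9, pandas 2.3.3 and numpy 2.4.6 under Python 3.11.15.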

Additional observations from a re-analysis of the deposited data

How the results depend on the processing

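No paired analysis was possible because the series holds 1 group of samples. Rescaling the replicates to equal sums changed the unit and moved the summed level of the 10 genes to 7045, and it raised the genes past 1.5-fold between replicates 3 and 4 to 2, as *Canx* reached 1.503. The coding transcript as length, added after the data were seen, gave a sum of 3337 FPKM and a ratio of *Hspa5* to *Hspa8* of 0.449. The CV of *Hsp90b1* was 20.9% on GC-corrected values and 21.4% to 47.6% with 1 replicate left out, the lowest without replicate 3. With 1 replicate left out the sum was 2606 to 2703 FPKM, the share of all FPKM 0.675% to 0.734%, the ratio of *Hsp90b1* to *Hsp90ab1* 0.264 to 0.368 and that of *Hspa5* to *Hspa8* 0.556 to 0.611. Of the 10 genes, 8 were among the highest 1000 under each alternative except the coding length, where *Hyou1* made it 9. The count past 1.5-fold could not be formed without replicate 3 or 4. Of the means of single genes, 15 moved by more than their SD, after rescaling or with the other length, and 45 did not. The median in place of the mean, the filter and the pseudocount changed no count and moved no value by more than the spread between replicates. Depth limits none of the 10 genes, since 3 reads come to at most 0.0343 FPKM on any of them.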

Other observations

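The genes that bring chains into the ER had a median of 48.1 FPKM, beside 192 for the 10 chaperones and isomerases and 18.2 for the sensors and factors of the unfolded protein response, with single genes of these lists overlapping widely. Genes and lists were chosen with earlier results known, so this order is a description. Of 15 genes of the translocon and the signal peptidase in the files, 14 reached 1 FPKM in every replicate and 6 were among the highest 1000. Of all genes, 44.1% and 4.41% did so. *Ssr2*, a subunit of the translocon-associated protein complex, had 263, 291 and 241 FPKM, a mean of 265, above *Hspa5* in replicates 1 and 3 and below it in replicate 4. *Sec61a1*, the pore of the translocon, had 163, 191 and 142 FPKM and *Ssr3* a mean of 129. *Srp54a*, a subunit of the signal recognition particle, was listed at 0, a value that is uncertain because the gene has near-identical copies.

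All 11 oligosaccharyltransferase and related genes in the files reached 1 FPKM, and 6 were among the highest 1000, beside 44.1% and 4.41% of all genes. *Ddost* had 226, 257 and 206 FPKM, *Rpn2* 208, 223 and 200.2, and *Ostc* 116.0, 115.4 and 116.3, while *Magt1* was lowest with a mean of 13.4. *Ddost* and *Rpn2* were highest in replicate 3 and lowest in replicate 4, the pattern of *Calr* and *P4hb*, and their transcripts have 55.7% and 53.0% GC. *Ostc*, at 45.5% GC, hardly differed between the replicates.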
